A study of Mus musculus with 26 samples.

Results

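The genes described here encode the machinery that docks, primes and fuses secretory and synaptic vesicles. Members were taken by gene symbol, as the synaptotagmins (Syt), syntaxins (Stx), syntaxin-binding proteins (Stxbp), vesicle-associated membrane proteins (Vamp), complexins (Cplx), the genes named Snap with a number, the Rims, Unc13 and synapsin (Syn) genes, and the scaffold genes Bsn and Pclo. This gave 67 of the 23107 genes in the table. They were measured in 26 RNA-seq libraries from the preoptic area of the hypothalamus, where the cell bodies of the neurons that secrete gonadotropin-releasing hormone (GnRH) lie. Every mouse came from a cross labelled GnRH CRE x Floxed L10a-GFP, in which the Cre recombinase of GnRH neurons switches on ribosomal protein L10a fused to GFP, so all groups carry both alleles. Animals were adults of 55 to 165 days. Translating ribosome affinity purification (TRAP) split the tissue of each pool of mice into an immunoprecipitate (IP), the RNA on tagged ribosomes, and a supernatant (SN), the RNA left after that step. The 8 groups are both fractions of 3 pools of diestrous intact females with 5 to 7 mice each, 3 pools of ovariectomized females with 7 mice each, 4 pools of intact males with 5 to 7 mice each and 3 pools of orchidectomized males with 5 mice each. Replicates were therefore separate pools of animals, and a pool hides the differences among its mice.

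Vesicles fuse when SNARE proteins of the vesicle (the VAMPs) and of the target membrane (syntaxins and SNAP-25 relatives) zip into a tight bundle of helices. Munc18 and Munc13 proteins prepare the syntaxin, complexins hold the bundle ready, and synaptotagmins couple fusion to calcium, while Rims, Bassoon and Piccolo organise the release site and synapsins hold vesicles in reserve. GnRH neurons use this machinery to release their peptide from dense-core vesicles, and relatives of the same proteins serve the constitutive, endosomal and Golgi traffic of every cell.

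Total counts ran from 27217000 to 56669000 per library. Gnrh1, the transcript that marks the tagged cells, ranged from 3174 to 20929 CPM (read counts scaled to library size) in the IP libraries and from 47.5 to 1579 CPM in the SN libraries, and was higher in the IP of 13 of 13 pools. Of 7 GnRH neuron markers, 5 were higher in the IP and 1 was lower. Markers of other cells were still present in the IP and none was at 0 in all of its libraries. All 10 oligodendrocyte markers were lower in the IP, as were 6 of 8 astrocyte, 6 of 8 microglia and 5 of 10 markers of other neurons, of which 1 was higher. Of 8 endothelial and mural markers 4 were higher, 1, Rgs5, was lower and 3 did not pass. Their part in the results below was not tested. Among single libraries, the SN of intact female pool 2 held Gnrh1 at 1579 CPM. The IP of gonadectomized male pool 0 held summed endothelial and mural markers at 327 CPM against at most 99.8 CPM in the other IP libraries. That library also held summed astrocyte markers at 2033 CPM against at most 662 CPM in the other IP libraries. The SN of intact male pool 3 held Alas2, a transcript of red-cell precursors, at 139 CPM against at most 6.28 CPM elsewhere. In bulk RNA such as this, fewer cells of a type and less RNA per cell cannot be told apart.

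The comparison of IP with SN asked which release genes were higher or lower in the RNA on tagged ribosomes than in the RNA left behind. The IP also held markers of other cells. Summed oligodendrocyte markers had a median of 1504 CPM in the IP and 2725 CPM in the SN, and the median log2 fold change of these markers was -0.81. The IP levels and family shares below are therefore not those of GnRH neurons alone. Of the 67 members, 64 had enough counts to be tested, and of these 11 were higher in the IP, 32 were lower and 21 did not pass. Over all 16713 genes tested, 21.3% were called higher and 21.6% lower, so the share of members called in either direction was 67.2% against 42.9%. The median log2 fold change (IP minus SN) was -0.35 over the members and -0.06 over all genes. Calls are at an adjusted p under 0.05 in edgeR's quasi-likelihood test with Benjamini-Hochberg adjustment over all genes tested, and each adjusted p below comes from that test unless another tool is named. With the pool of mice as a block the counts were 10 higher and 33 lower, and without the 3 libraries named above 11 higher and 32 lower. With the trend of fold change on transcript length removed, they were 12 higher and 26 lower. The longest annotated transcript had a median of 2.94 kb among members called higher, 4.48 kb among those called lower and 3.26 kb among all genes tested. The labels number the libraries, and those numbered 1 to 10 are 4 pools of intact mice while 11 to 30 are the other 9 pools, so the numbering is partly confounded with gonadectomy. In the enrichment, the libraries numbered 11 to 30 called 6 members higher and 27 lower, and those numbered 1 to 10 called 11 higher and 25 lower. Stx2, Vamp3, Cplx2 and Syt2 passed in both parts, and so did further members, among them Vamp2, Cplx1, Pclo and Syt1.

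**Figure D1:**
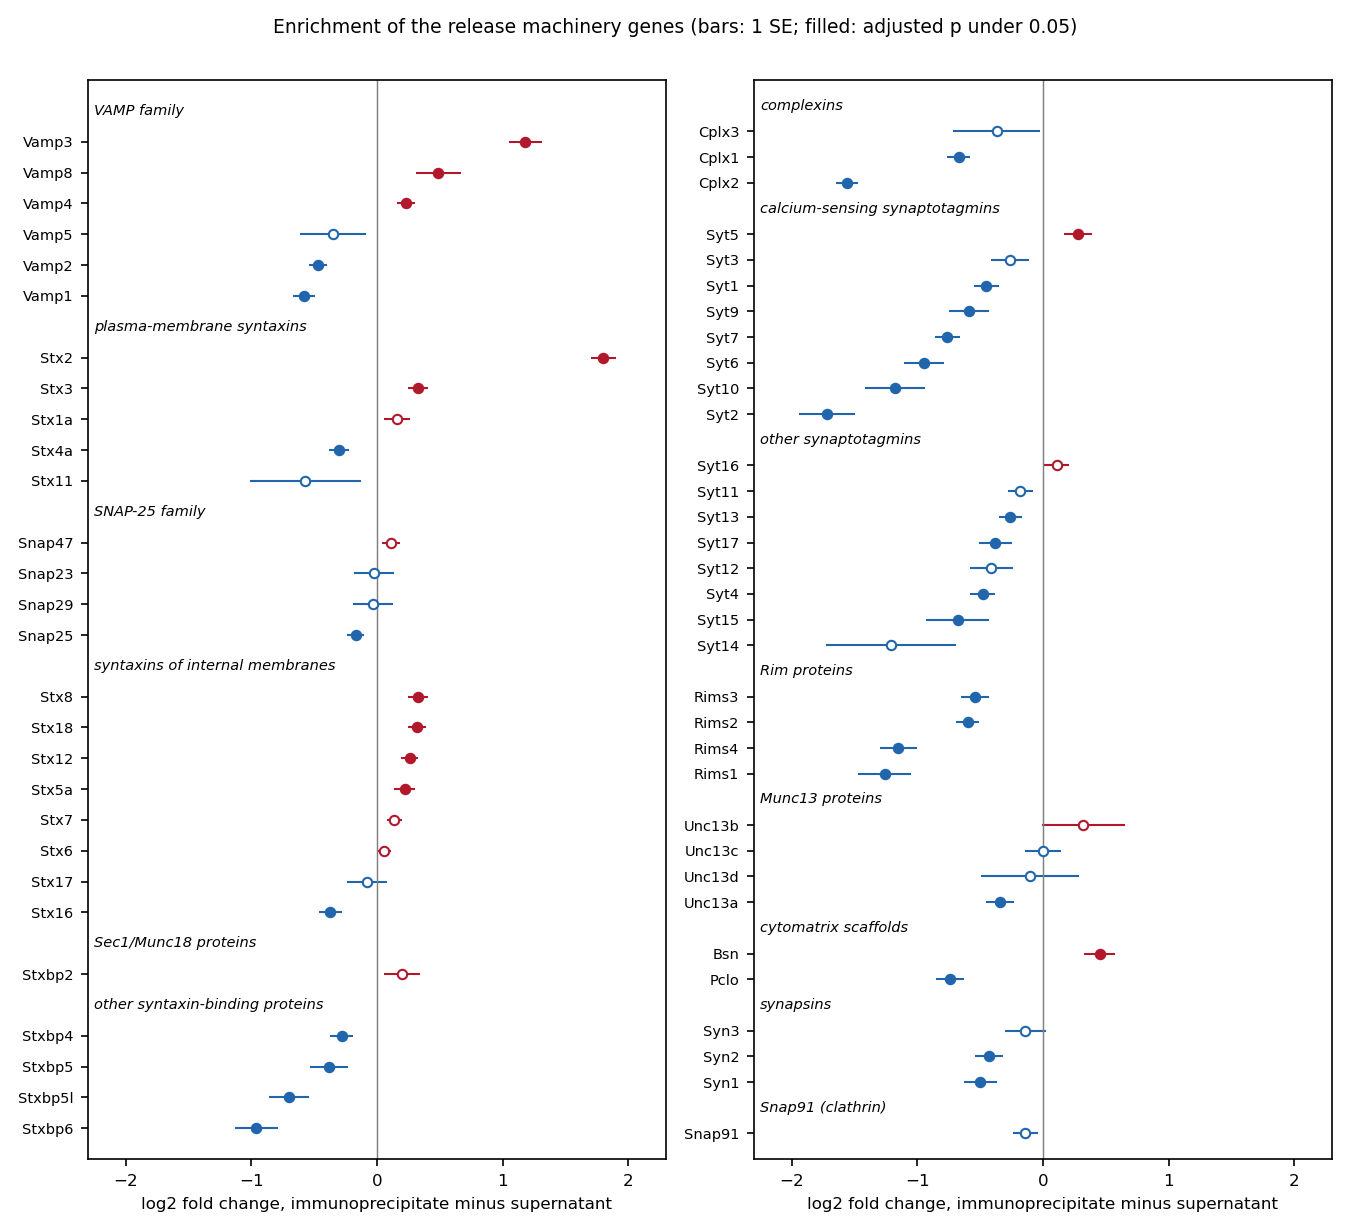
Log2 fold change of the tested members reported here (IP minus SN, over all conditions) with 1 SE, grouped by role; filled symbols mark calls (adjusted p below 0.05), and Stx19, near 0 counts, is left out. Stx2 at 1.80 and Vamp3 at 1.18 stand far to the right, Syt2 at -1.72 and Cplx2 at -1.56 far to the left, and all 4 Rim genes lie below 0.

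The promoters of 3 members are shown because they stand for the 2 extremes of this comparison, Stx2 with the largest rise and Cplx2 with the lowest adjusted p among the falls, and for a typical neuronal release gene, Syn1. Each is the stretch of 250 bases upstream of a RefSeq start (build GRCm38.p6), 5′ to 3′ on the strand of the gene, with motif matches in capitals.
Stx2, chr5:129008573-129008822, minus strand: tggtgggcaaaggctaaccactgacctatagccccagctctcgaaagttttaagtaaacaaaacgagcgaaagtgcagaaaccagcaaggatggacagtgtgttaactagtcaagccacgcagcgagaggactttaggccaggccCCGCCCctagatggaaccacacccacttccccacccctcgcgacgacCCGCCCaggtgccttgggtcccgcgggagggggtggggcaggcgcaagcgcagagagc
Cplx2, chr13:54302306-54302555, plus strand: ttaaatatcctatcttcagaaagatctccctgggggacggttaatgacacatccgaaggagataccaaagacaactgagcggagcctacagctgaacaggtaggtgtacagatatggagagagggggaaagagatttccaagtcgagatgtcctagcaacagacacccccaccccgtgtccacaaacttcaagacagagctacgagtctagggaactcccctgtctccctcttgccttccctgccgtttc
Syn1, chrX:20920919-20921168, minus strand: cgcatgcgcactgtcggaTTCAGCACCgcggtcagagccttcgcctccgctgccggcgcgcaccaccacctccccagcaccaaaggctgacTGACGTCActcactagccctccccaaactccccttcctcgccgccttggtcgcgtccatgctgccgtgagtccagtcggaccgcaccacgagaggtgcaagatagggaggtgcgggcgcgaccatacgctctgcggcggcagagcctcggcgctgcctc
The motifs searched on both strands were the GC box GGGCGG (bound by Sp1 and its kin), the half-site TTCAGCACC of the RE1 element (bound by REST, the repressor of neuronal genes in other cells) and the cyclic AMP response element TGACGTCA. None of the matches shown overlaps another. The Stx2 window holds 2 GC boxes in the opposite orientation (CCGCCC), the Cplx2 window holds none of the 3 motifs, and the Syn1 window holds an RE1 half-site and a cyclic AMP response element. RefSeq lists a second start for Stx2 inside the gene, and places the Cplx2 start upstream of the GENCODE gene model, which spans chr13:54371349-54383917. Windows were found for 50 of the 67 members. A GC box stood in 61.3% of the 62 member windows and in 32.7% of all 32851 windows of that length. The RE1 half-site and the cyclic AMP element each stood in 1.61% of member windows, both times that of Syn1, against 0.301% and 1.55% of all windows. Among members with a window, a GC box was found for 5 of 9 called higher and 18 of 22 called lower. These letters describe the windows and show no binding.

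Among the vesicle SNAREs, Vamp2 and Vamp1 fell in the IP, while Vamp3, Vamp8 and Vamp4 rose. Vamp2, synaptobrevin of synaptic vesicles, ranged from 1336 to 2213 CPM in the IP with a median of 1707, and from 2036 to 2722 CPM in the SN with a median of 2397. The ranges overlap at their edges, but within each of the 13 pools the IP was the lower fraction. The difference was a log2 of -0.47 ± 0.07 SE (1.38-fold lower, adjusted p 6.10e-06). Its relative Vamp1 had medians of 287 CPM in the IP and 447 CPM in the SN and fell likewise, by 0.58 on the log2 scale (SE 0.09). Vamp3, cellubrevin of recycling endosomes and constitutive secretion, went the other way. It ranged from 43.2 to 158 CPM in the IP with a median of 77.6, and from 27.1 to 43.7 CPM in the SN with a median of 37.2. Apart from the lowest IP value, in pool 0 of intact males, every IP library lay above every SN library, and Vamp3 was higher in the IP of 13 of 13 pools. It was 2.26-fold higher (log2 1.18 ± 0.13 SE, adjusted p 8.42e-08).

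Vamp8, a SNARE of late endosomes and of granules in non-neuronal cells, rose by a log2 of 0.49 ± 0.18 SE from a SN median of 10.8 CPM to an IP median of 15.6 CPM. In the libraries numbered 11 to 30 its log2 was 0.20 and did not pass (adjusted p 0.499). With the length trend removed Vamp8 did not pass either (log2 0.44, adjusted p 0.0555). Its IP values of 23.1, 26.9 and 29.8 CPM, in 3 of the 4 pools numbered 1 to 10, exceeded those of all other pools. Vamp4 of the trans-Golgi network rose by 0.23 ± 0.07 SE (adjusted p 0.00829), a call lost in the libraries numbered 11 to 30 (log2 0.15, adjusted p 0.213). Vamp5 had 4.15 CPM in the IP and 5.27 CPM in the SN without passing. Vamp7 was listed at 0 in all 26 libraries, so nothing can be said of it. Per kilobase of its longest transcript, Vamp2 led the family in both fractions, with 786 CPM per kb in the IP and 1084 CPM per kb in the SN. Vamp3 made up 4.24% of the summed VAMP level per kb in the IP and 1.39% in the SN.

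The plasma-membrane syntaxins moved in both directions. Stx2, a syntaxin of the cell surface known from epithelia and many other cells (chromosome 5, 128984557 to 129008574 on mm10, minus strand), was the most enriched member. Its IP values ran from 38.5 to 80.7 CPM with a median of 57.4, and its SN values from 14.1 to 20.3 CPM with a median of 16.2. The fractions did not overlap, a pattern shown upward by no other member and by 2.15% of all genes. The difference was 3.48-fold (log2 1.80 ± 0.10 SE, adjusted p 1.57e-12), and leaving out any single pool moved it only between 1.74 and 1.86.

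Stx1a, the syntaxin of synapses and secretory cells, was not called. It ranged from 82.5 to 163 CPM in the IP and from 86.9 to 157 CPM in the SN, with medians of 122 and 98.3, and was higher in the IP of 9 of 13 pools. Its log2 fold change of 0.16 ± 0.10 SE did not pass (adjusted p 0.213). The libraries numbered 1 to 10 alone gave 0.53 (adjusted p 0.0335) and those numbered 11 to 30 gave -0.01, so this value is tied to a part of the pools. Stx3, a syntaxin of dendritic and apical exocytosis, rose by 0.33 ± 0.08 SE, but had a log2 of 0.04 in the libraries numbered 1 to 10. Stx4a, the widely used surface syntaxin, fell by 0.30 on the log2 scale (SE 0.08), and had a log2 of -0.04 in the libraries numbered 1 to 10. Stx11 was low in both fractions (means of 2.29 and 3.06 CPM) and did not pass. Stx19 had 6 counts over the 13 IP libraries and 84 over the 13 SN libraries. It passed as lower, and no fold is given at that depth. With a minimum count of 10, Stx19 could enter the test only through SN libraries, so its direction was largely set by the filter. Its call is still included in the 32 members counted as lower over all conditions.

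**Figure D2:**
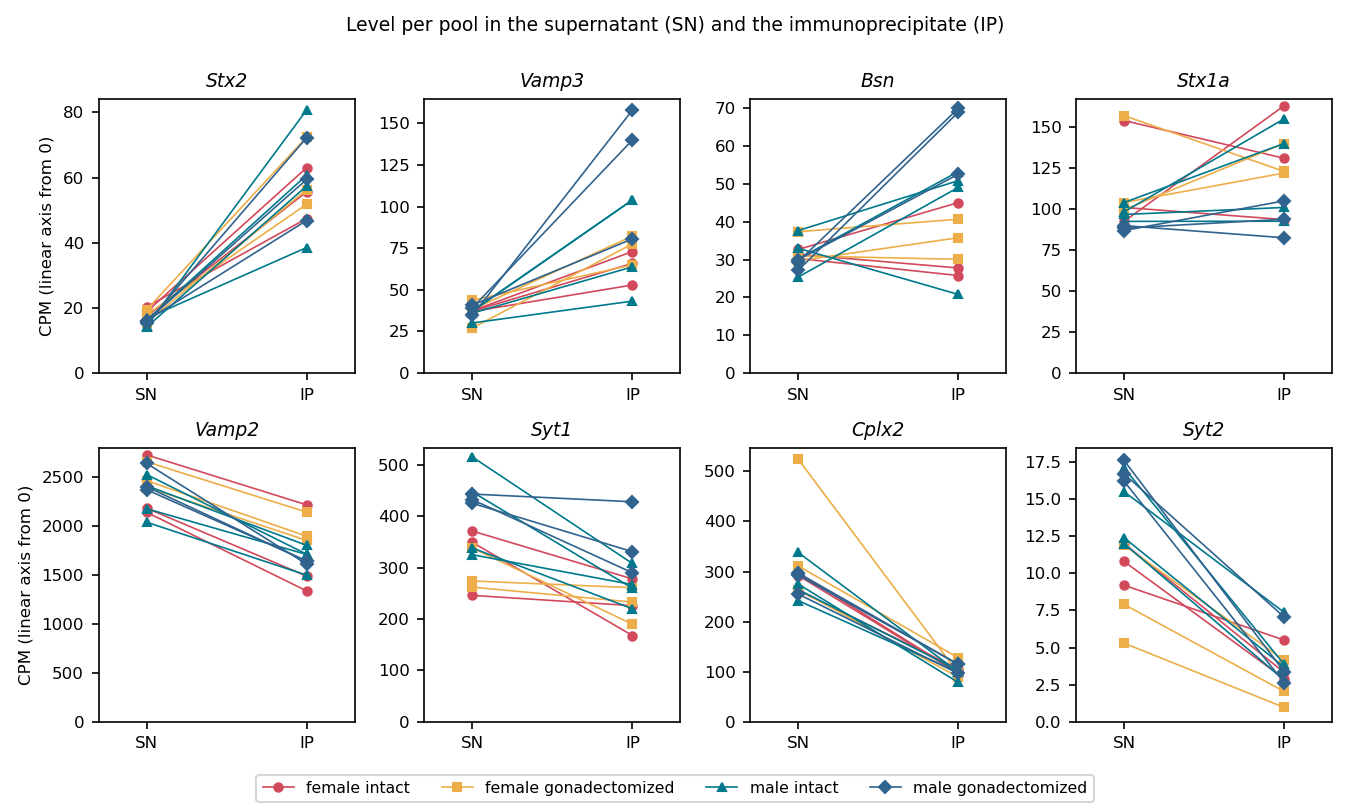
CPM of 8 members in the SN and the IP of each pool, joined by a line, with a linear axis from 0 and colours for the 4 conditions. Stx2 and Vamp3 rise in 13 of 13 pools, Vamp2, Syt1, Cplx2 and Syt2 fall in 13 of 13, and the lines of Bsn and Stx1a cross.

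The third part of the SNARE bundle changed least. Snap25, the neuronal partner of Stx1a and Vamp2, ranged from 1834 to 3260 CPM in the IP and from 2243 to 3213 CPM in the SN, with medians of 2284 and 2733. It was lower in the IP of 10 of 13 pools, and its log2 of -0.17 ± 0.07 SE lay at the threshold (adjusted p 0.0498). The call was lost with DESeq2 (adjusted p 0.0748), with the 3 libraries named above left out (adjusted p 0.165) and with the length trend removed (log2 0.01). It also turned to 0.07 in the libraries numbered 1 to 10. Snap47, a relative found on internal membranes of neurons, had means of 779 CPM in the IP and 719 CPM in the SN and was higher in the IP of 12 of 13 pools without passing (log2 0.11, adjusted p 0.225). The widely expressed Snap23 and Snap29 lay at -0.02 and -0.03. Snap91, which is the clathrin assembly protein AP180 and matched by its symbol only, lay at -0.14 (adjusted p 0.267).

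Of the 8 syntaxins of internal membranes, 4 rose, 1 fell and 3 did not pass, with a median log2 fold change of 0.18. The shares of all genes called were 21.3% higher and 21.6% lower. Stx8 and Stx12 of endosomes rose by 0.33 ± 0.08 SE and 0.26 ± 0.07 SE. Stx18 of the endoplasmic reticulum rose by 0.32 ± 0.07 SE, and Stx5a of the early Golgi by 0.22 ± 0.08 SE. The call for Stx5a was lost with the pool as a block (adjusted p 0.0647), and those for Stx8, Stx12 and Stx5a were lost in the libraries numbered 11 to 30. Stx16 of the trans-Golgi network fell by 0.37 on the log2 scale (SE 0.09), while Stx6 and Stx7 had values of 0.06 and 0.14, and Stx17, which serves autophagosomes, -0.08.

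The 4 syntaxin-binding proteins outside the Munc18 family fell, where 21.6% of all genes were called lower. Among them, the inhibitors of SNARE assembly were Stxbp6, which encodes amisyn and fell by 0.96 (SE 0.17), and the tomosyn genes Stxbp5l and Stxbp5, which fell by 0.70 (SE 0.16) and 0.38 (SE 0.15) on the log2 scale. The Stxbp5 call (adjusted p 0.0424) was lost when any of 7 pools was left out. Stxbp4, known from insulin-regulated traffic, fell by 0.28 on the log2 scale, and did not pass with the length trend removed (log2 -0.07) or in the libraries numbered 1 to 10 (-0.18). Munc18-2, encoded by Stxbp2, lay at 0.20 ± 0.14 SE and did not pass.

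Of the 3 complexins tested, Cplx1 and Cplx2 fell and Cplx3 did not pass, where 21.6% of all genes were called lower. Cplx2 ranged from 78.8 to 128 CPM in the IP with a median of 99.1, and from 242 to 524 CPM in the SN with a median of 292. Its fractions did not overlap, as in 2.40% of all genes downward and in 3 further members, Pclo, Rims1 and Rims4. The fall was 2.94-fold (log2 -1.56 ± 0.09 SE, adjusted p 3.39e-12), and it stayed between -1.63 and -1.46 without any single pool. Gonadectomized female pool 0 had the highest SN value, and the other 12 SN libraries reached at most 338 CPM. Cplx1 fell less, by 1.59-fold (log2 -0.67 ± 0.09 SE), from a SN median of 1672 CPM to an IP median of 1019 CPM. Per kilobase of longest transcript, Cplx1 had the second highest value of all members in both fractions. It made up 95.8% of the complexin level on that scale in the IP and 92.6% in the SN. Cplx3 had 2.84 CPM in the IP and 3.68 CPM in the SN (log2 -0.37 ± 0.35 SE). Cplx4 had 0 counts in the IP and 20 in the SN and was not tested.

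Of the 8 synaptotagmins that bind calcium, 6 fell and 1 rose, with a median log2 fold change of -0.67. Among all genes, 21.6% were called lower and 21.3% higher. Syt2, a fast calcium sensor of synapses, showed the largest fall among members above 1 CPM. It ranged from 0.981 to 7.38 CPM in the IP with a median of 3.39, and from 5.30 to 17.6 CPM in the SN with a median of 12. The lowest SN value, in gonadectomized female pool 0, fell below the 3 highest IP values, which came from other pools, yet the IP was lower within every pool. The fall was 3.29-fold (log2 -1.72 ± 0.22 SE, adjusted p 1.02e-06). Syt1, the main fast sensor of the forebrain, fell less, by a log2 of 0.45 (SE 0.10, adjusted p 6.03e-04), with medians of 261 CPM in the IP and 349 CPM in the SN. It too was lower in every pool.

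Syt10 fell by 1.18 (SE 0.24), Syt6 by 0.95 (SE 0.16), Syt7, a slow high-affinity sensor, by 0.76 (SE 0.10) and Syt9 by 0.59 (SE 0.16) on the log2 scale. Syt9 had a log2 of -0.34 in the libraries numbered 11 to 30 and no longer passed there. Syt5 went up, by 0.28 ± 0.11 SE at an adjusted p of 0.0479. That call was lost with limma voom (adjusted p 0.0503), with the length trend removed and in the libraries numbered 11 to 30 (log2 0.15). Syt5 had the highest level per kilobase of any synaptotagmin in both fractions, 113 CPM per kb in the IP and 91.8 CPM per kb in the SN, ahead of Syt1 at 55.2 and 76.0 CPM per kb. Syt3 lay at -0.26 ± 0.15 SE and did not pass.

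The other synaptotagmins bind calcium weakly or not at all. Syt4, found on dense-core vesicles, had medians of 77.7 CPM in the IP and 121 CPM in the SN and fell by 0.48 on the log2 scale (SE 0.10, adjusted p 2.90e-04). Falls were also called for Syt17 (-0.38), Syt15 (-0.68) and Syt13 (-0.26). The call for Syt13 was lost with the length trend removed (log2 -0.15, adjusted p 0.198), and those for Syt13 and Syt17 were lost in the libraries numbered 1 to 10 (adjusted p 0.295 and 0.0752). Syt15 averaged 0.913 CPM in the IP and its call was lost with the pool as a block (adjusted p 0.0689). Syt11 and Syt12 did not pass, at -0.18 and -0.41, but passed with that block (adjusted p 0.0103 and 0.0151). Syt14 had -1.21 with an SE of 0.52, and Syt16 had 0.11. Syt8 had a single count in all 26 libraries and was not tested.

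All 4 Rim genes fell, where 21.6% of all genes were called lower. The long Rim proteins tether vesicles to calcium channels at the active zone. Rims1 ranged from 2.46 to 15.3 CPM in the IP with a median of 9.54, and from 16.4 to 27.5 CPM in the SN with a median of 22.9. Rims4, a short form, ranged from 4.02 to 10.9 CPM in the IP and from 13.3 to 23 CPM in the SN. For both genes the lowest SN library lay above the highest IP library. The falls were 2.39-fold for Rims1 (log2 -1.26 ± 0.21 SE, adjusted p 4.62e-05) and 2.23-fold for Rims4 (log2 -1.15 ± 0.15 SE, adjusted p 1.24e-06). Rims2, the most abundant Rim gene per kilobase in both fractions, fell by 0.60 (SE 0.09) and Rims3 by 0.54 (SE 0.11) on the log2 scale. Rims3 no longer passed in the libraries numbered 1 to 10 (log2 -0.48, adjusted p 0.0547).

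The 4 Munc13 genes, which prime vesicles, gave 1 call, a smaller share than the 42.9% of all genes called in either direction. Unc13a, which encodes the main priming factor of excitatory synapses, fell by 0.34 on the log2 scale (SE 0.11, adjusted p 0.0177), from a SN median of 39.4 CPM to an IP median of 33.4 CPM. With the length trend removed its value was -0.09 (adjusted p 0.559). Unc13b, Unc13c and Unc13d had log2 fold changes of 0.32 ± 0.33 SE, 0.00 ± 0.14 SE and -0.10 ± 0.39 SE. The first of these passed in the libraries numbered 11 to 30 (0.72, adjusted p 0.00492).

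The 2 giant scaffolds of the active zone, Bassoon and Piccolo, moved apart. Pclo ranged from 53.7 to 98.5 CPM in the IP with a median of 89.4 and from 104 to 193 CPM in the SN with a median of 130, with no overlap. It fell 1.67-fold (log2 -0.74 ± 0.11 SE, adjusted p 9.18e-06). Bsn ranged from 20.8 to 70.0 CPM in the IP with a median of 45.1 and from 25.4 to 37.7 CPM in the SN with a median of 30.3. Its IP was the higher fraction in 9 of 13 pools, and the rise was 1.36-fold (log2 0.45 ± 0.12 SE, adjusted p 0.00515). In the libraries numbered 1 to 10 it was 0.15 (adjusted p 0.727).

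Of the 3 synapsins, which tether vesicles to actin and to each other, 2 fell, where 21.6% of all genes were called lower. Syn1 (chromosome X, 20860511 to 20921004 on mm10, minus strand) had medians of 320 CPM in the IP and 473 CPM in the SN, and Syn2 of 416 and 523 CPM. They fell by 0.50 (SE 0.13) and 0.43 (SE 0.11) on the log2 scale, each in 13 of 13 pools. Syn3, the least abundant, had -0.14 and did not pass. Across the whole set, 22 members were lower in the IP of 13 of 13 pools, and 2, Stx2 and Vamp3, were higher in all 13. Over all genes these shares were 7.77% and 6.82%.

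Levels per kilobase of the longest annotated transcript are set side by side here. Which transcripts were expressed was not determined, so ranks and shares on this scale are rough, above all between families. On that scale the order of the leading genes was the same in both fractions: Vamp2, Cplx1, Snap25 and Snap47. In the IP, Cplx1 at 492 ± 108 CPM per kb (SD, n = 13 pools) and Snap25 at 491 ± 76.7 CPM per kb did not differ beyond their spread. Among the 15 syntaxins, Stx2 had rank 12 in the SN with 5.71 CPM per kb and rank 8 in the IP with 19.9 CPM per kb. Even so, Stx1a at 54.8 CPM per kb in the IP remained above Stx2.

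**Figure D3:**
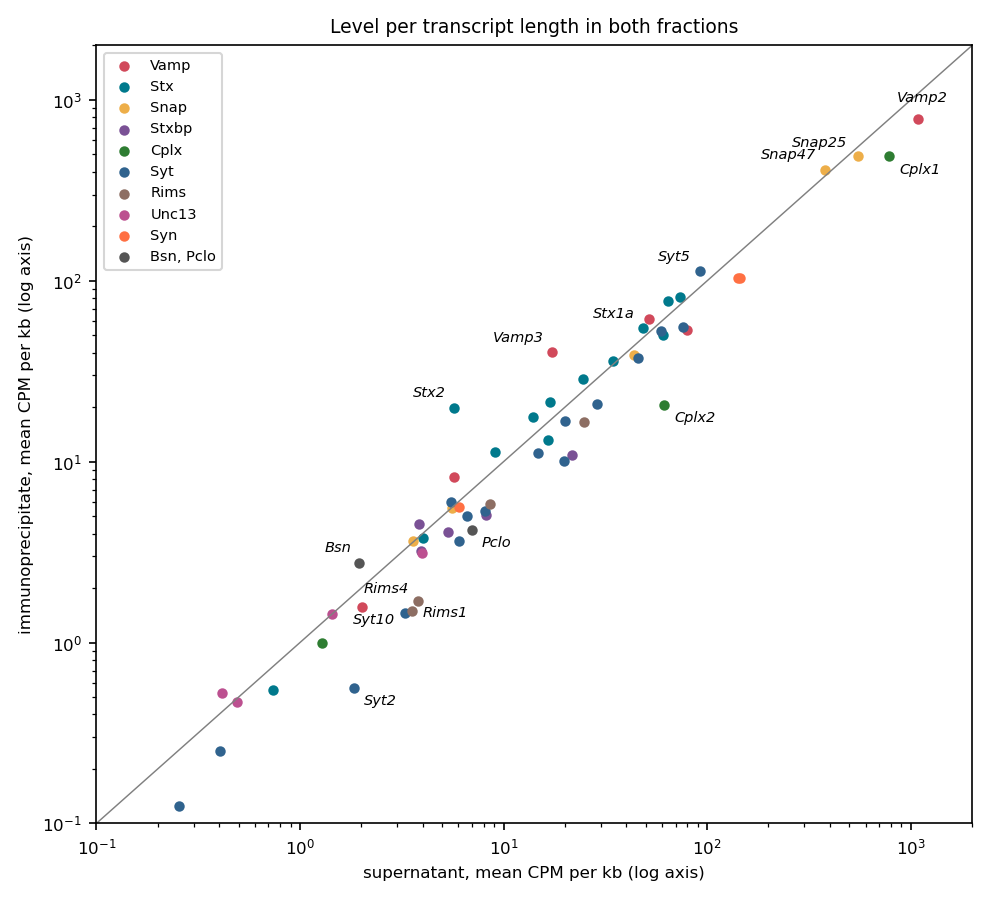
Mean CPM per kb of longest transcript in the SN (x, log axis) and the IP (y, log axis) for the members reported that are above 0.1 CPM per kb in both, coloured by family; the line marks equal levels. Vamp2, at 1084 CPM per kb in the SN and 786 CPM per kb in the IP, is at the top in both. Stx2 and Vamp3 lie above the line, and Cplx2 and Syt2 below it.

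Genes that act beside the members were counted in the same comparison. Of 101 companion genes in 8 lists, 16 were higher in the IP, 51 were lower and 34 did not pass, with a median log2 fold change of -0.31. Over all genes, 21.3% were called higher and 21.6% lower. With the length trend removed, 15 companion genes were higher and 36 lower, and in the libraries numbered 11 to 30 these were 10 and 37. The recycling factors of spent SNAREs fell, with Napb at -0.88 ± 0.13 SE and Nsf at -0.43 ± 0.10 SE, as 3 of 4 genes of that list did. Among other active-zone genes 10 of 17 fell, led by Rimbp2 (-1.24) and Apba1 (-1.10), and 1 rose, Bzrap1 (0.71), a second Rim-binding protein. Of 17 genes of vesicle retrieval, 12 fell, with Ap2b1 at -1.11 and dynamin Dnm1 at -0.88, and 3 rose, the strongest being Ap2s1 at 0.47 and Clta at 0.33. Of these retrieval genes, 6 were lower and 2 higher with the length trend removed, and 10 and 0 in the libraries numbered 11 to 30.

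Of 20 vesicle Rab genes and their effectors, 4 were higher and 6 lower, near the shares of all genes given above. Rab27b, a Rab of dense-core and secretory granules, rose from 68.7 ± 12.3 CPM in the SN to 153 ± 36.4 CPM in the IP (SD, n = 13 pools), a log2 of 1.15 ± 0.11 SE that was positive in 13 of 13 pools. Rab3d, also known from granules of secretory cells, rose from 10.4 ± 1.78 to 29.9 ± 9.62 CPM (log2 1.53 ± 0.16 SE). The Rab3 and Rab27 effector Rph3a fell instead (-1.24 ± 0.08 SE). Esyt3, an extended synaptotagmin that tethers the endoplasmic reticulum to the cell surface, showed the largest rise of all companions, a log2 of 2.24 ± 0.19 SE from 7.16 ± 1.96 to 33.1 ± 11 CPM. Its list of 9 genes had 2 higher and 4 lower, among the latter Myof (-1.08) and Otof (-0.92), with a median log2 of -0.42. In the libraries numbered 11 to 30 that list had 2 higher and 1 lower. Among 13 membrane proteins of vesicles, Syngr2 rose (1.42) and 7 fell. Of those called lower with a mean of at least 1 CPM, Sv2c (-1.20) and Syngr1 (-0.92) fell most. Of 12 SNAREs of internal membranes outside the set, 5 rose, Bet1l (1.04) and Bet1 (0.50) most, and 4 fell, Gosr1 (-0.77) and Vti1a (-0.65) most. The exocyst, which tethers vesicles to the cell surface, had 5 of 9 subunits lower and none higher. That count was 1 lower with the length trend removed, 2 in the libraries numbered 11 to 30, 3 in those numbered 1 to 10 and 8 with the pool as a block. In the libraries numbered 11 to 30, 3 of the Rab genes and effectors, 4 of the vesicle membrane proteins and 4 of the SNAREs of internal membranes were lower, and 2 of the latter were higher.

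The enriched SNAREs are given here beside the endothelial and mural markers, of which 4 of 8 were called higher in the IP. These 4 were endothelial genes: Abcb1a (log2 1.97), Cldn5 (1.34), Flt1 (1.19) and Slco1a4 (1.18). The endothelial Pecam1 (0.24) and the mural Pdgfrb (-0.15) and Vtn (-0.02) did not pass. The mural Rgs5 was lower (log2 -0.88, adjusted p 0.0284). The sum of all 8 mixes both kinds. It ran from 26.2 to 327 CPM in the IP with a median of 61.2, and from 29.2 to 87.6 CPM in the SN with a median of 63.7. It was higher in the IP of 6 of 13 pools. In the pool with the highest sum, gonadectomized male pool 0, the IP had 80.6 CPM of Vamp3 and 46.8 CPM of Stx2. The pool with the highest Vamp3, gonadectomized male pool 2 at 158 CPM, had a sum of 87.1 CPM, and the pool with the highest Stx2, intact male pool 1 at 80.7 CPM, had 71.2 CPM. The 3 pools with the lowest sums in the IP, intact female pools 0 and 2 and intact male pool 0 at 26.2 to 28.4 CPM, had Stx2 at 63.0, 47.4 and 60.7 CPM and Vamp3 at 65.9, 73.0 and 43.2 CPM. The last of these is the lowest Vamp3 value in the IP. Without the 3 libraries named above, Stx2 was at a log2 of 1.86 and Vamp3 at 1.24, and both passed. In that refit 0 of 8 endothelial and mural markers were called higher. The libraries left out include the IP of gonadectomized male pool 0, named for its high sum of these markers. That count thus partly follows from the choice of libraries. Any part of endothelial cells in the levels of Stx2 and Vamp3 was not tested.

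Within each condition the same comparison called fewer members: 17 in intact females (3 higher, 14 lower), 6 in gonadectomized females (2 and 4), 24 in intact males (5 and 19) and 13 in gonadectomized males (3 and 10). Over all genes, 10.2% were called higher and 7.77% lower in intact females, and 2.97% and 3.31% in gonadectomized females. In males these shares were 14.6% and 11.2% when intact and 5.93% and 4.73% after gonadectomy. The count in gonadectomized females rose to 12 with the pool as a block. Single pools also bore on these counts. The count for intact females dropped to 2 without pool 0 and to 4 without pool 1, that for gonadectomized females to 2 without pool 0 and to 3 without pool 2, and that for gonadectomized males to 5 without pool 1 and to 3 without pool 2. Median log2 fold changes of the members were -0.33, -0.28, -0.41 and -0.29 in the same order. Stx2 and Vamp3 were called higher, and Cplx2 and Syt2 lower, in each of the 4 conditions, which held for 1.80% and 1.72% of all genes.

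Stx2 had log2 fold changes of 1.55 and 1.77 in intact and gonadectomized females and of 1.95 and 1.91 in intact and gonadectomized males. Cplx2 had -1.50, -1.80, -1.56 and -1.37 in that order. Vamp3 varied more, at 0.78, 1.05, 1.16 and 1.72. Bsn was near 0 in females (0.07 and 0.12) and at 0.46 in intact males, and passed in gonadectomized males alone, at 1.15 ± 0.26 SE (adjusted p 0.00447). There its IP values were 52.6, 69.0 and 70.0 CPM and its SN values had a mean of 28.9 ± 1.51 CPM (SD, n = 3), below each of them. In gonadectomized females the IP values were 40.7, 30.1 and 35.8 CPM and the SN values 37.4, 31.0 and 29.7 CPM. The difference in Bsn enrichment between these 2 groups was a log2 of 1.03 ± 0.36 SE (male minus female, p 0.00918), which did not pass after adjustment over all genes (adjusted p 0.867).

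**Figure D4:**
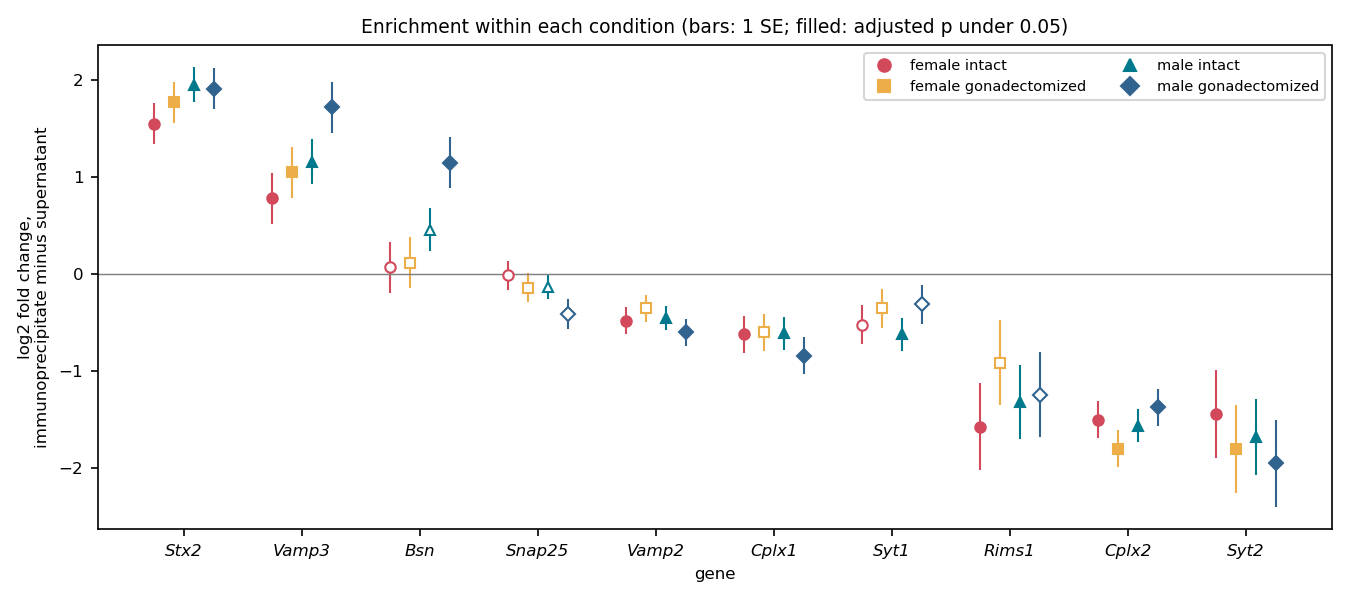
Log2 fold change (IP minus SN) of 10 members within each of the 4 conditions, with 1 SE; filled symbols mark calls (adjusted p below 0.05). Stx2, Vamp3, Cplx2 and Syt2 are filled in all 4, and Bsn is filled only in gonadectomized males, at 1.15.

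Tests of a difference in enrichment between conditions called no member by edgeR. At an unadjusted p under 0.05 there were 1 of 64 members for gonadectomy in females (7.47% of all genes), 3 for gonadectomy in males (8.16%), 2 for sex in intact mice (4.43%) and 7 for sex in gonadectomized mice (5.27%). DESeq2, limma voom and the other scalings called 0 members in these 4 tests as well. The share of all genes called was 0 in 3 of the tests and 0.00598% for sex in intact mice. The lowest p in females belonged to Stx16 (gonadectomized minus intact, 0.60 ± 0.28 SE), Stx8 (-0.46) and Vamp8 (-0.91), and in males to Unc13c (1.00 ± 0.39 SE), Stx18 (-0.49) and Stx8 (-0.45). Between the sexes of intact mice they were Stx19, too low for a fold, Stxbp4 (male minus female, -0.51) and Stx16 (0.46). Between those of gonadectomized mice, Bsn was followed by Stx12 (-0.46) and Stx18 (-0.50). Lowest adjusted p-values in these tests lay between 0.593 and 1.0.

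Gonadectomy removes the sex steroids whose feedback controls GnRH secretion, and its effect on the release genes was tested within each fraction. In the IP no member passed in females or males, and over all 16160 genes tested the share called was 0 in both sexes. Unadjusted p-values under 0.05 were found for 0 of 63 members in females and 3 of 63 in males, against 3.66% and 9.34% of all genes. The median SE of a member was 0.26 in females and 0.25 in males.

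In females the lowest p belonged to Pclo, with IP values of 55.3, 89.4 and 53.7 CPM after gonadectomy and 95.0, 88.4 and 86.0 CPM in intact mice (log2 -0.44 ± 0.21 SE, p 0.0562, adjusted p 0.994). Stx16 (0.49) and Stxbp2 (-0.70) came next. In males it was Stx18, with 44.0, 45.2 and 48.1 CPM after gonadectomy and 74.9, 48.0, 78.5 and 61.9 CPM in intact mice (log2 -0.52 ± 0.18 SE, p 0.0126, adjusted p 0.525). Vamp3 stood at 80.6, 140 and 158 CPM after gonadectomy and at 43.2, 63.8, 104 and 104 CPM in intact males (log2 0.68 ± 0.29 SE, adjusted p 0.525). The 2 lowest of these intact values came from the libraries numbered 1 to 10, and with a term for the numbering the difference was 0.40. Stx7 followed at -0.31. In the SN, 4 of 64 members in females and 1 in males had an unadjusted p under 0.05 (7.31% and 2.73% of all genes), and none passed. Unc13a was among the 3 lowest in both sexes, at -0.33 in females and -0.31 in males (adjusted p 0.653 and 1.0), and at -0.16 and -0.17 with the numbering term. Stx8 (0.33) and Stx3 (-0.29) in females and Stxbp2 (-0.29) and Unc13c (-0.32) in males were the others. The share of all genes called was 0.0122% in females and 0 in males.

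Between the sexes of intact mice, no member passed in the IP (2 of 63 at an unadjusted p under 0.05, 4.11% of all genes) or the SN (2 of 64, 3.71%). The share of all genes called was 0.0248% in the IP and 0.0428% in the SN. Stxbp4 had the lowest p in the IP, at 16 ± 3.65 CPM in males (SD, n = 4) and 23.7 ± 1.91 CPM in females (SD, n = 3; log2 -0.57, adjusted p 0.991 in edgeR), followed by Stx16 (0.52) and Syt11 (0.36). In the SN, Stx2 was at 15.3 ± 1.35 CPM in males and 18.8 ± 1.45 CPM in females (log2 -0.27, adjusted p 0.861 in edgeR), followed by Syt1 (0.35) and Syt2 (0.44).

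Between the sexes of gonadectomized mice more members had a low p, and none passed in edgeR. In the IP, 11 of 63 had an unadjusted p under 0.05, 17.5% against 8.59% of all genes, and the share of all genes called was 0.0186%. Stx18 stood at 44.0, 45.2 and 48.1 CPM in males and 69.1, 77.5 and 69.3 CPM in females (log2 male minus female -0.65 ± 0.20 SE, adjusted p 0.551). Syt11 was the reverse, at 341, 304 and 344 CPM in males and 229, 225 and 197 CPM in females (0.60 ± 0.19 SE, adjusted p 0.551). Syt1 stood at 428, 331 and 290 CPM in males and 233, 261 and 190 CPM in females (0.62 ± 0.21 SE, adjusted p 0.551).

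In the SN of gonadectomized mice, 12 of 64 members had an unadjusted p under 0.05, near the 21.1% of all genes, and 0.0428% of all genes were called. Syt2 stood at 16.7, 16.2 and 17.6 CPM in males and 5.30, 7.91 and 11.9 CPM in females (log2 0.99 ± 0.23 SE, adjusted p 0.108). Stx4a was lower in males, at 75.7, 80.4 and 71.3 CPM against 106, 113 and 88.8 CPM (-0.45 ± 0.11 SE, adjusted p 0.108). Stx8 was at 56.9 ± 4.47 CPM in males and 75.6 ± 14.2 CPM in females (SD, n = 3 each; -0.42 ± 0.13 SE, adjusted p 0.109). DESeq2 called 4 members here, Syt2, Stx4a, Stx8 and Syt1, with adjusted p-values of 0.0105, 0.0153, 0.0338 and 0.0465. Without the SN of gonadectomized female pool 2, whose values are the nearest to the males for these 3 genes, edgeR called 8 members.

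**Figure D5:**
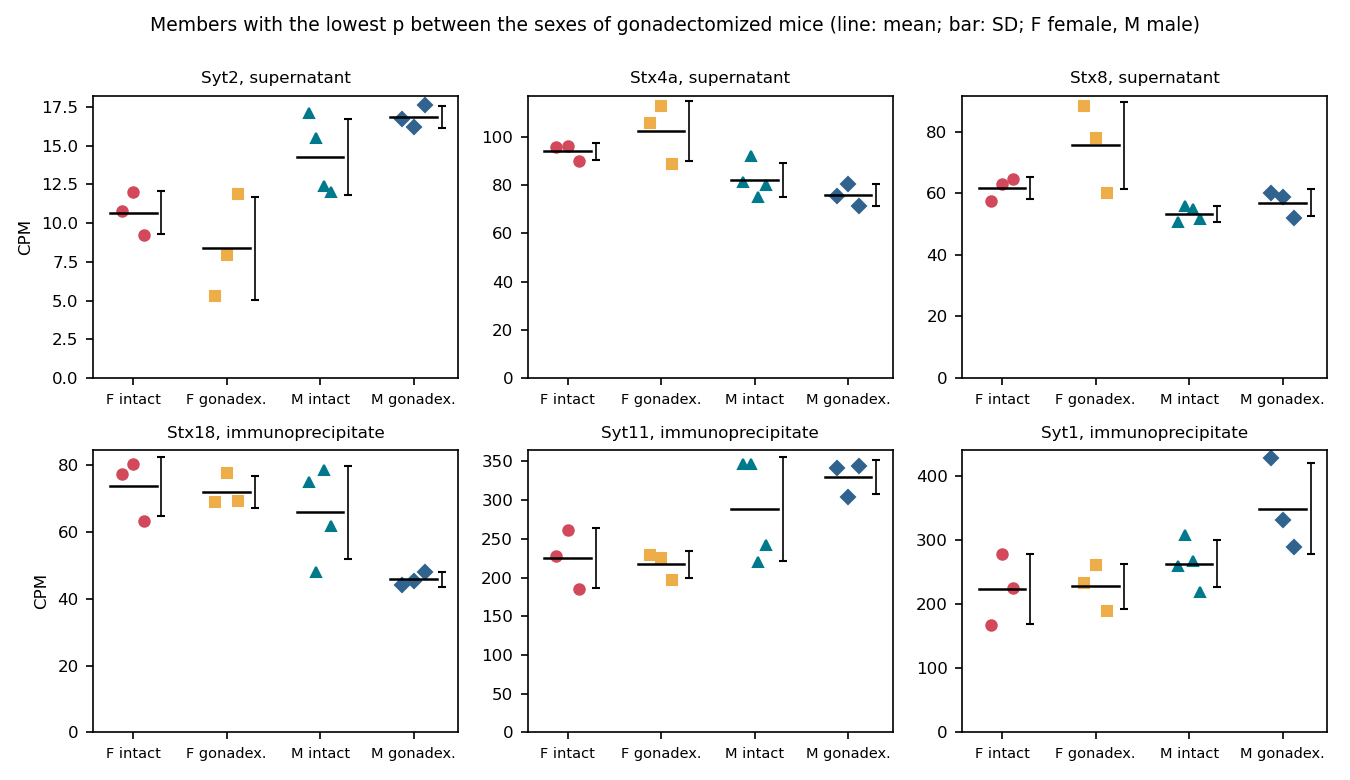
CPM per library of the 3 members with the lowest p between gonadectomized males and females in the SN (top) and in the IP (bottom), in all 4 conditions; lines are means and bars SDs, and each axis starts at 0. Syt2 in the SN lies at 16.2 to 17.6 CPM in gonadectomized males and at 5.30 to 11.9 CPM in gonadectomized females; no difference shown passed in edgeR.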

How the data were processed

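Both fractions of 13 pools of mice were sequenced after amplification from very low input, per the labels' protocols, with a kit that does not mark the strand. The authors deposited estimated counts of fragments per gene, not normalized, with a column for each library. The tools named by the submitters' processing notes are Bowtie2 2.1.0, TopHat2 2.0.9, Cuffdiff 2.1.1, Cufflinks and FastQC, on mm10. Which annotation was used, and how reads with several matches were treated, is not given in the sources used here. Values of genes with close copies, overlapping genes and antisense genes are therefore uncertain. The reads carry no molecular identifiers, so copies made by amplification cannot be told from separate molecules.

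Estimated counts were rounded (1.46% of values were not whole) and tested by the quasi-likelihood F-test of edgeR 4.0.16 (R 4.3.3), two-sided, with Benjamini-Hochberg adjustment over all genes tested. Genes were filtered by filterByExpr (minimum count 10, minimum total 15) and libraries scaled by TMM. The enrichment fit held the 26 libraries as 8 groups, with no block; comparisons of sex and gonadectomy were fitted on the 13 libraries of a single fraction. The biological coefficient of variation was 0.56 among IP and 0.181 among SN libraries, and every pair of replicates differed by more than sampling noise (lowest chi-square per degree of freedom 4.6). CPM values are scaled to the effective library size. Lengths and positions are those of GENCODE M21 on mm10 (66 members matched, 1 by a synonym), and promoters are from RefSeq, GRCm38.p6. Alternatives were DESeq2 1.42.0, RLE factors, no filter, limma voom (limma 3.58.1), the replicate block, leaving out each pool or library, the label numbering and fits on fewer samples. The refits without 3 libraries, without 1 of them and without the length trend (loess with a span of 0.5) were added after seeing the data. Scripts were tested on simulated data.

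IP and SN with the same number in a condition came from the same pool, per the labels, and 12 of 13 pools correlated best with their own partner (r of 0.01 to 0.17 after removing group means). Members named with full statistics were 8 core genes, of which 2 are not reported here, and, per role, up to 3 called genes with the largest change and a mean of at least 1 CPM; in comparisons of conditions they were the 3 with the lowest p. Companion genes were named by size of change among called genes with a mean of at least 1 CPM, up to 2 per direction and list. The members, lists and tests were chosen with earlier results of these data known.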

Additional observations from a re-analysis of the deposited data

Results flagged for a closer look

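In the 4 intact male pools, the only groups large enough to look for a library far from the rest, 66 sets of values were examined, and chance would set a value apart in about 1 in 20 of them. Pool 0 had the lowest IP value of 3 members: Bsn at 20.8 CPM against 49.1 to 53.3 CPM in the other 3 pools, Cplx2 at 78.8 CPM against 99.1 to 103 CPM, and Pclo at 63.6 CPM against 91.6 to 96.8 CPM. In the SN, Syt6 stood apart in pool 2, at 125 CPM against 80.4 to 86.4 CPM.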

How the results depend on the processing

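Counts of members called in the enrichment over all conditions stayed between 35 and 43 without any single pool (8 to 12 higher, 27 to 32 lower). With the replicate block for the pool they were 10 higher and 33 lower; the block changed the calls of Stx5a, Syt15, Syt11 and Syt12, and raised the count in gonadectomized females to 12. A block on the replicate number across conditions, which the labels do not tie to a shared batch (24 pairs, r of -0.11 to 0.34, 6 over 0.1), left 0 members called in every comparison of sex or gonadectomy. The libraries numbered 11 to 30 alone called 6 members higher over all conditions; within conditions they called 15 in intact and 23 in gonadectomized males, and 0 in intact and 15 in gonadectomized females; each condition fitted alone called 3 in intact females and 20 in gonadectomized males. Without single pools, the calls ranged from 17 to 27 (intact) and 3 to 18 (gonadectomized) in males, and from 2 to 23 and 2 to 9 in females. Between the sexes of gonadectomized mice, DESeq2 called 4 members in the SN and a term for the label numbering 7, and counts without single libraries ranged from 0 to 8. For gonadectomy in the female SN they ranged from 0 to 1, the call being Stx8 without gonadectomized pool 2, and for the other comparisons of conditions from 0 to 0. Snap25 turned to 0.07 in the libraries numbered 1 to 10 and to 0.01 without the length trend, and Stx1a to -0.01 in the libraries numbered 11 to 30. Of 759 values of 33 named members under other settings, 701 kept their direction and side of the threshold and 54 no longer passed. Where not stated, the cause was not tested. Depth limits the lowest members: Stx19, Cplx4 and Syt8 had 6, 0 and 0 counts in the IP.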

Other observations

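Stxbp3a, the Munc18-3 gene whose symbol in the table carries a letter and falls outside the naming rule, had 11.4 CPM in the IP and 13.5 CPM in the SN on average (SD 4.4 and 1.94, n = 13 pools). Its log2 fold change of -0.24 ± 0.19 SE did not pass in edgeR (adjusted p 0.316).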
